A study of Mus musculus with 50 samples.

Results

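Cilia and axoneme genes of the mouse airway were followed across 10 groups of arrays. The members were the genes whose only symbol in the platform annotation named an intraflagellar transport, Bardet-Biedl, axonemal dynein, tektin, radial spoke, Spag, Ropn1 or Cfap protein, or was Foxj1, Hydin, Ccdc39, Ccdc40 or Tppp3. The rule reads symbols only and was written with earlier results of these data known. It found 66 genes on 76 spots of the larger platform, out of 13409 genes with a single symbol, and the same 66 genes on 73 spots of the smaller platform, out of 13509. Ccdc40 and the dynein intermediate chains named Dnai had no probe under the rule.

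The study hybridised RNA of tracheal perfusate and of whole lung, 5 arrays a group, against reference RNA, to follow what IL-13 does to airway epithelial cells. In each tissue 3 groups carried IL-13 in their labels and differed in genotype, which was Stat6+/- in the first, Stat6-/- in the second and Stat6-/- with the mark Epi+ in the last. These are called Stat6+/-, Stat6-/- and Epi+ here. The other groups of each tissue had been given ovalbumin (OVA) or saline (PBS), and the sources used here do not give their genotype, the strain, the ages, how IL-13 was supplied or what Epi+ stands for. In mouse lines with this name a transgene returns Stat6, the transcription factor that IL-13 receptors activate, to epithelial cells of the airway. No label ties arrays to animals, so a p-value here reflects how far the arrays of a group scatter, part of which may be technical.

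Motile cilia are the beating processes of ciliated airway cells. Their core, the axoneme, is a ring of doublet microtubules around a central pair, to which dynein arms and radial spokes are attached, and the dyneins slide the doublets to make the cilium bend. Intraflagellar transport (IFT) carries the parts in and out along the doublets, with the IFT-B complex leading the way to the tip and IFT-A the return, and the BBSome, built of Bardet-Biedl proteins, moves membrane cargo. Foxj1 is the transcription factor that switches on genes of motile cilia, and RFX factors bind a palindromic sequence, the X-box, before many genes of both motile and primary cilia. In bulk RNA, fewer ciliated cells and less ciliary RNA per cell cannot be told apart.

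Of the 66 members, 55 had a promoter in RefSeq's table for build GRCm38.p6, which holds 250 bases before and 50 after a transcript start. The X-box was searched on both strands with the fixed letters capitalised below, and was found in the windows of 8 of the 55 (14.5%), against 0.936% of 27025 genes in the table. The shorter motif GTTGCC, which lies inside many X-boxes, was found in the windows of 18 members (32.7%), after or at the start in some, against 14.1% of all genes. The forkhead motif GTAAACA, of the kind Foxj1 binds, was found in those of 3 members (5.45%; Cfap20, Dnah17 and Tekt3), against 4.05% of all genes. A match describes these letters only. The 8 X-boxes are shown because the motif was found more often among members than among all genes, though most members with a promoter lack it. The search itself set the fixed letters. The X-boxes are written in the direction of the motif, with the fixed letters in capitals. That of Tekt4 begins at the start and that of Cfap61 runs across it:
Bbs7: GTTgCCttgGaAAC
Cfap20dc: GTTgCCtggGcAAC
Cfap298: GTTgCCcggGcAAC
Cfap45: GTTaCCataGcAAC
Cfap61: GTTtCCttaGcAAC
Hydin: GTTgCCacaGcAAC
Spag16: GTTgCCgtaGtAAC
Tekt4: GTTgCCtaaGgAAC
They lie at chr3:36613497-36613510 (Bbs7), chr14:8666379-8666392 (Cfap20dc), chr16:90935024-90935037 (Cfap298), chr1:172521111-172521124 (Cfap45), chr2:145934776-145934789 (Cfap61), chr8:110266956-110266969 (Hydin), chr1:69826867-69826880 (Spag16) and chr17:25471590-25471603 (Tekt4).

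Of the 8 members called in any comparison, those other than Cfap53 lie as follows: Ift172 (chr5:31253279-31291391), Ift27 (chr15:78159460-78174081), Cfap206 (chr4:34688574-34730263), Spag16 (chr1:69826872-70725132), Ccdc39 (chr3:33810757-33844325), Cfap45 (chr1:172521130-172545870) and Cfap126 (chr1:171113912-171126956), as RefSeq places them on GRCm38.p6. Promoters of 4 of the members called in the comparisons are shown with their motifs in capitals, from 150 bases before to 20 after the start and on the strand of the gene. These 4 were picked because a motif was found in them. No X-box, shorter motif or forkhead motif was found for the other called members, Cfap206, Ccdc39, Cfap126 and Cfap53. Not every member had a promoter to search, and which of these had one is not given here. The promoters of Cfap45 and Spag16 hold an X-box, and those of Ift172 and Ift27 hold only the shorter motif. They span chr5:31291095-31291264 on the minus strand (Ift172), chr15:78174062-78174231 on the minus strand (Ift27), chr1:172520980-172521149 on the plus strand (Cfap45) and chr1:69826820-69826989 on the plus strand (Spag16).
Ift172: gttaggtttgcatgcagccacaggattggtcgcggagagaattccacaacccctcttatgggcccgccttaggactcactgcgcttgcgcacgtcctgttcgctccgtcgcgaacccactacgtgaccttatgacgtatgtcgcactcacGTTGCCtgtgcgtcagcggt
Ift27: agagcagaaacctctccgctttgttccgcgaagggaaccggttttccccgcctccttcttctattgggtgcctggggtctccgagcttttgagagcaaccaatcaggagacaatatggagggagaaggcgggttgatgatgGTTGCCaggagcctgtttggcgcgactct
Cfap45: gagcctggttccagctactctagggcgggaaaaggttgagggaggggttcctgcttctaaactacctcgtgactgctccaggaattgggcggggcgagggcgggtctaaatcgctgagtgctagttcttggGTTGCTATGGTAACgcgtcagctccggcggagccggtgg
Spag16: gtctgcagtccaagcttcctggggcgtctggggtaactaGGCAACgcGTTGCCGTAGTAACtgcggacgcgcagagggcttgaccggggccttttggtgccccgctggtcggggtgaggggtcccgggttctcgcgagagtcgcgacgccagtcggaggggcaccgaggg

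Every value below is a log2 ratio of sample to reference, with the median of its array set to 0 and the spots of a gene averaged. The direction of the ratio is likely rather than stated: Il13 itself stood 2.72 ± 0.21 higher (SE; limma, adjusted p = 1.77e-06) in Stat6-/- than in PBS perfusate with this direction. The IL-13 groups were not alike in Il13, which was lower in Stat6+/- than in Stat6-/- perfusate (-0.99 ± 0.21, 0.0118). It was -0.67 ± 0.21 (0.257) in Epi+ minus Stat6-/-, and its part in the comparisons below was not tested. Arrays held values for 15693 to 18655 spots and for 57 to 66 members, and the medians removed lay between -0.96 and 0.30. The Stat6 probe did not separate the genotypes (Stat6+/- minus Stat6-/- -0.10 ± 0.14, adjusted p = 0.848, in perfusate), and the sources used here do not say which part of the gene it reads. Some Stat6-/- arrays were low in the Y-linked genes Uty and Eif2s3y: Uty lay at -2.10, -0.95 and -0.93 on perfusate replicates 10, 11 and 12 against -0.09 and -0.73 on replicates 13 and 14, and at -3.66 and -4.35 on lung replicates 1 and 2 against -0.61 to 0.38 on the others. Comparisons with Stat6-/- are therefore also given without these 5 arrays where they move. In perfusate this left only Stat6-/- replicates 13 and 14, fewer than the 3 arrays a group asked for elsewhere. Other arrays were low as well, and stayed in. Among them, Uty and Eif2s3y lay at -0.82 and -1.07 on Epi+ perfusate replicate 16 and at -1.16 and -2.75 on OVA lung replicate 5. Uty alone lay at -0.98 on Stat6+/- perfusate replicate 4, at -1.53 on OVA lung replicate 2 and at -1.38 on Epi+ lung replicate 2. Eif2s3y alone lay at -1.21 on Stat6-/- lung replicate 5. Kdm5d, also Y-linked, was not low on the 3 perfusate arrays left out (0.25, 0.10 and -0.03). X-linked Xist lay at -0.09, 0.91 and -0.33 on those 3 arrays, against -5.70 to -1.36 on all other perfusate arrays. In lung it lay at 7.35 on Stat6-/- replicate 1, against -3.15 to 2.94 on the others with a value, and replicate 2 had none. The labels give no sex, and its part in the comparisons with Stat6-/- was not tested.

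Within perfusate the gene set lay highest in Stat6+/- and Epi+, and on the smaller platform it lay lower in OVA than in PBS lung. In perfusate, the member median of an array averaged 0.24 ± 0.21 (SD, n = 5) in Stat6+/- and 0.28 ± 0.19 in Epi+, against -0.04 ± 0.21 in Stat6-/-, -0.04 ± 0.11 in PBS and 0.05 ± 0.18 in OVA. The ranges overlapped: Stat6+/- ran from -0.01 to 0.55 and Epi+ from 0.13 to 0.51, while Stat6-/- ran from -0.25 to 0.30 and PBS from -0.22 to 0.09, so that Epi+ and PBS alone were separate. In whole lung the IL-13 groups stood at 0.13 ± 0.21 (Stat6+/-), 0.14 ± 0.10 (Stat6-/-) and 0.27 ± 0.16 (Epi+), on one platform and against other reference pools than the OVA and PBS lungs. On the smaller platform the OVA lungs stood at -0.40 ± 0.20 (-0.74 to -0.21) and the PBS lungs at -0.05 ± 0.10 (-0.20 to 0.04), with no overlap.

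**Figure D1:**
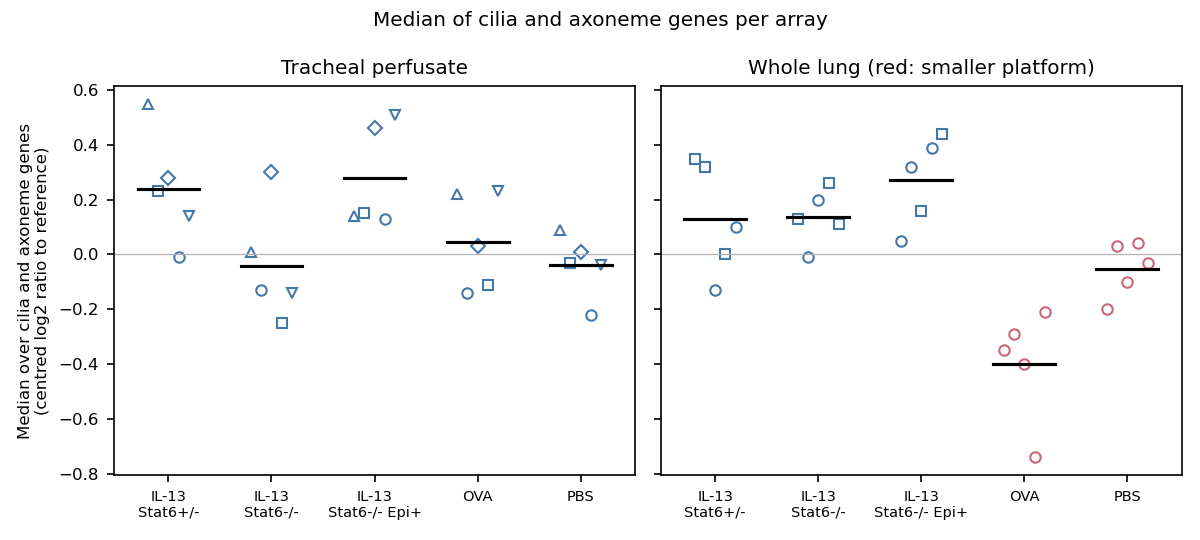
Median of the cilia and axoneme genes on each array, as a centred log2 ratio (y axis), for the 10 groups (x axis), with the marker shape showing the reference preparation or pool, a bar at each group mean and the smaller platform in red. The Epi+ perfusate arrays lie between 0.13 and 0.51 and the PBS perfusate arrays between -0.22 and 0.09, and all OVA lung arrays lie below all PBS lung arrays.

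The members varied strongly with the reference preparation. Each of the 5 preparations, 1.1 to 1.5, was used for 1 array of every perfusate group, and it took a median of 39.5% of the within-group sum of squares over 62 members (5.74% to 88.8%), close to the 42.6% over 13345 features. Tppp3, a tubulin-binding protein used as a marker of ciliated airway cells, had the highest share at 88.8%, followed by Tekt1 at 79.8%, Tekt2 at 77.8% and Cfap157 at 76.4%. Tppp3 lay between -0.70 and 0.25 on the 10 arrays of preparations 1.1 and 1.2 and between 0.71 and 1.97 on the 15 arrays of the others, whatever the group. Preparation was therefore a block in every perfusate test. Among members, the mean within-group SD ranged in perfusate from 0.17 for Cfap97 to 1.29 for Dnah17, with a median of 0.38. It was higher in lung, with a median of 0.59 over the IL-13 groups and 0.54 over OVA and PBS.

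In perfusate with IL-13, cilia and axoneme genes stood higher in Stat6+/- than in Stat6-/- samples for most members, and 3 passed the test. Ift172, a large IFT-B subunit, was 1.88-fold higher, and Cfap206, known from Tetrahymena as a protein at the base of a radial spoke, and Ccdc39, which with Ccdc40 sets the spacing of the arms and spokes along the doublet, also rose. Of 64 members tested, 3 were called higher and 0 lower (limma, Benjamini-Hochberg adjusted p under 0.05), where 3.07% of all 15830 features were called, 1.09% higher and 1.98% lower. Differences lay above 0 for 50 members (78.1%), against 47.5% of all features. The members' median difference was 0.23, against -0.02 over all features. Without the 3 Stat6-/- arrays low in Y-linked genes, 2 were called and the median was 0.40. A single member was called without Stat6+/- replicate 6, Stat6-/- replicate 13 or Stat6-/- replicate 14, so the count is 1 to 3 over such fits. Within the preparations the members' median difference was -0.03, 0.46, 0.38, 0.01 and 0.29, so 1.1 and 1.4 showed next to none.

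Most members also stood higher in Epi+ than in Stat6-/- perfusate. Ccdc39 was 1.90-fold higher than in Stat6-/- and Cfap206 rose too, the only 2 of 64 members called, with 0 lower, where 0.474% of all features were called, 0.152% higher and 0.322% lower. Differences lay above 0 for 51 members (79.7%, against 47.0% of all features), with a median of 0.28 against -0.02. At an unadjusted p under 0.05, 17 members were higher and 1 lower, where 7.51% of all features passed it in either direction. Without the Stat6-/- arrays low in Y-linked genes, 1 was called and the median rose to 0.54. The count was 0 without any of Stat6-/- replicates 10, 13 and 14 or Epi+ replicates 16, 17, 19 and 20, and 5 without Stat6-/- replicate 12. Preparations 1.1 to 1.5 gave 0.17, 0.47, 0.12, 0.10 and 0.58, all above 0.

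Between Stat6+/- and Epi+ perfusate, 0 of 64 members were called, where 0.0379% of all features were, and 1 was higher and 1 lower at an unadjusted p under 0.05, which 6.98% of all features passed. The median difference was -0.05, against -0.01 over all features, and it turned to 0.05 on the values as deposited, without centring. The lowest members were Cfap97d1 (-0.56 ± 0.28, adjusted p = 0.733), Cfap157 (-0.55 ± 0.24) and Spag1 (-0.52 ± 0.31), and the highest Rsph6a (0.46 ± 0.43), Spag16 (0.45 ± 0.28) and Rsph14 (0.43 ± 0.27). Ift81, the tubulin-binding IFT-B subunit, lay at -0.53, -0.38, -0.54, -0.38 and -0.45 in Stat6+/- and from -0.35 to 0.00 in Epi+, without overlap but not called (-0.34, adjusted p = 0.752). Non-overlap in this direction was seen for 0.373% of all features.

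Set against PBS perfusate, 7 members rose in Stat6+/-, 4 rose in Epi+ and 1 fell in Stat6-/-. In Stat6+/- minus PBS, 7 of 64 members were called higher and 0 lower, where 7.13% of all features were called, 2.89% higher and 4.24% lower. These were Ift172 at 2.12-fold, Ift27, Cfap126, Cfap45, Cfap53, Cfap206 and Spag16. In Epi+ minus PBS, 4 were called higher and 0 lower (Ift172, Cfap53, Cfap206 and Cfap45), where 3.01% of all features were called, 1.38% higher and 1.63% lower. In Stat6-/- minus PBS, 1 was called, Ccdc39, which was 2.26-fold lower, where 0.619% of all features were called, 0.328% higher and 0.291% lower. The members' medians were 0.22 (Stat6+/-), 0.33 (Epi+) and 0.01 (Stat6-/-), against -0.03, -0.05 and -0.02 over all features. The count for Stat6+/- fell to 4 without its replicate 6. That for Epi+ fell to 1 without Epi+ replicates 17 or 20 or PBS replicates 22, 24 or 26, and to 2 without Epi+ 19 or PBS 23. That for Stat6-/- was 0 without Stat6-/- replicates 10, 13 or 14 or PBS 22, 23 or 24, and 2 without Stat6-/- 12. These comparisons share the PBS arrays, and those with Stat6-/- share its arrays, so each stands beside the others and none counts as a repeat.

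The side of 0 was 48 of 64 members above it (75.0%, against 47.7% of all features) in Stat6+/- minus PBS, 52 (81.2%, against 45.6%) in Epi+ minus PBS and 34 (53.1%, against 47.7%) in Stat6-/- minus PBS. Within preparations 1.1 to 1.5 the median was 0.20, 0.20, 0.25, 0.27 and 0.24 for Stat6+/-, and 0.46, 0.18, 0.06, 0.39 and 0.43 for Epi+. For Stat6-/- it was 0.14, -0.36, -0.07, 0.26 and -0.03, on both sides of 0. It also turned to -0.19 on the values as deposited and to -0.23 without the arrays low in Y-linked genes. Members whose groups did not overlap numbered 8 higher and 0 lower in Epi+ minus PBS, where 1.42% and 2.0% of all features did so. They numbered 6 higher and 1 lower in Stat6+/- minus PBS, where the shares were 1.72% and 2.98%.

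**Figure D2:**
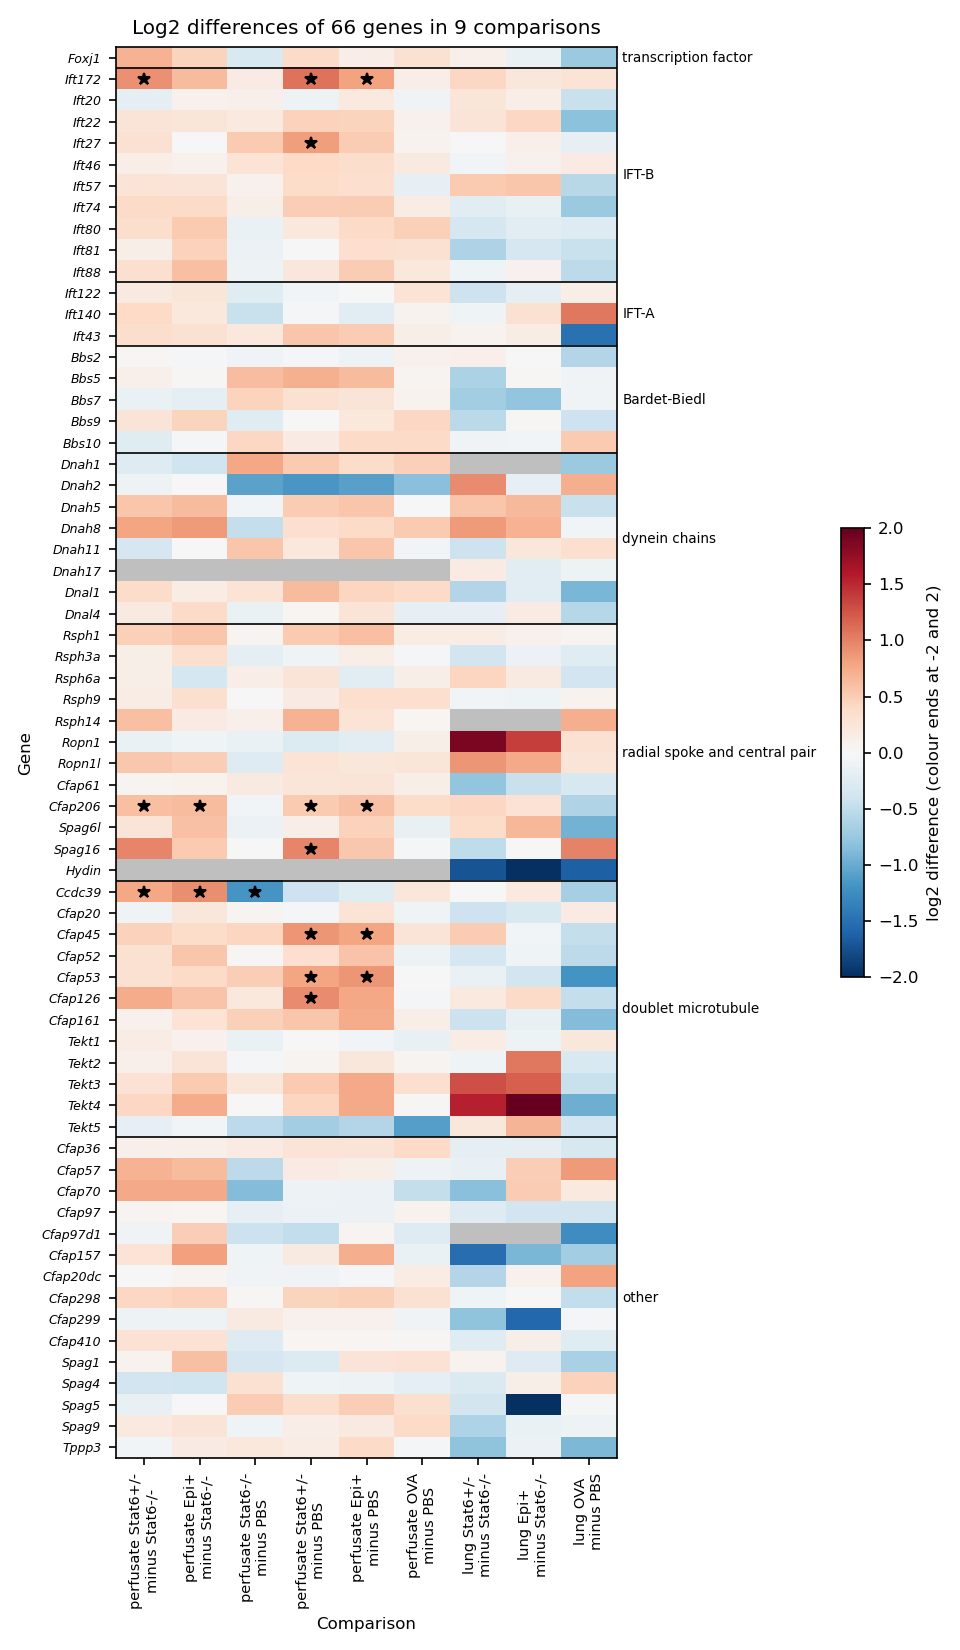
Log2 difference between groups (colour, ending at 2 either way) of the 66 cilia and axoneme genes, ordered by role (y axis), in 9 comparisons (x axis), with a star where limma's adjusted p was under 0.05 and grey where a gene was not tested. Stars appear in the perfusate columns and in none of the lung columns.

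**Figure D3:**
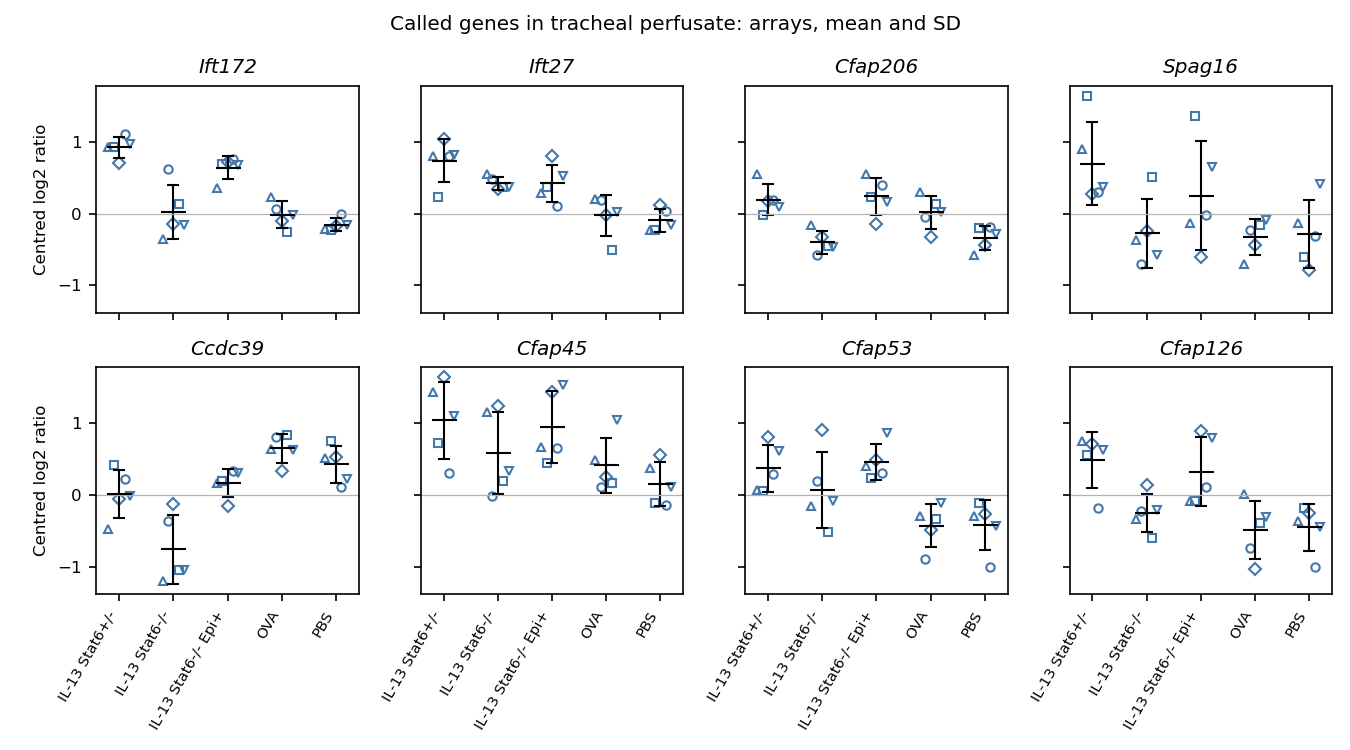
Centred log2 ratio (y axis) of the 8 genes called in at least 1 comparison, one panel each, on every perfusate array of the 5 groups (x axis), with arrays marked by reference preparation and the mean with its SD drawn beside them. Ift172 is highest in Stat6+/- at 0.71 to 1.12, and Ccdc39 is lowest in Stat6-/- at -1.20 to -0.13.

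By role, nearly all IFT-B subunits lay higher in Stat6+/- and Epi+ than in the other groups they were compared with. Of 10 tested, 9 were above 0 in Stat6+/- minus Stat6-/- (median 0.30), 9 in Epi+ minus Stat6-/- (0.32), 9 in Stat6+/- minus PBS (0.38) and 10 in Epi+ minus PBS (0.41). Ift172, which joins the train at its edge and is needed for cilia to form, gave 0.93, 0.93, 0.71, 1.12 and 0.97 on the Stat6+/- arrays. It gave -0.35, 0.62, -0.14, 0.13 and -0.16 on the Stat6-/- arrays and 0.36, 0.70, 0.72, 0.77 and 0.68 on the Epi+ arrays. The Stat6+/- values all lay above every Stat6-/- value, as for 0.979% of all features, and replicate 11 of Stat6-/- lay among the Epi+ values. OVA gave 0.24, 0.07, -0.10, -0.26 and -0.02 and PBS -0.21, -0.23, -0.17, 0.00 and -0.16, so both overlapped Stat6-/- and neither reached Stat6+/- or Epi+. PBS lay wholly below Stat6+/- for 1.72% of all features and below Epi+ for 1.42%. Stat6+/- minus Stat6-/- was 0.91 ± 0.14 (adjusted p = 0.000672), Stat6+/- minus PBS 1.08 ± 0.14 (8.98e-05) and Epi+ minus PBS 0.80 ± 0.14 (0.00378). Epi+ minus Stat6-/- was 0.63 (0.0503), just past the threshold. Within every preparation Stat6+/- was higher than Stat6-/-, by 0.50 to 1.28, and higher than PBS, by 0.88 to 1.16. Leaving out each array in turn ended none of its 3 calls.

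Ift27, the small GTPase of IFT-B that helps the BBSome leave the cilium, was measured at 0.80, 0.23, 1.05, 0.81 and 0.82 in Stat6+/-, and at 0.56, 0.48, 0.35, 0.37 and 0.37 in Stat6-/-. PBS lay at -0.22, -0.23, 0.12, 0.04 and -0.16. All arrays of Stat6+/- and of Stat6-/- thus lay above PBS, as 1.72% and 0.84% of all features did. Epi+ ran from 0.11 to 0.81 and OVA from -0.50 to 0.20, and both overlapped PBS. Stat6+/- minus PBS was 0.83 ± 0.15 (adjusted p = 0.00161) and was kept without each array in turn, with 0.45 to 1.03 within the preparations. Stat6-/- minus PBS was 0.52 (0.101) and Epi+ minus PBS 0.51 (0.0606), neither called. Ift80, another IFT-B subunit, was among the highest of OVA minus PBS in perfusate at 0.48 ± 0.24 (0.563).

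The IFT-A subunits (Ift122, Ift140 and Ift43) were above 0 in all 3 cases in both Stat6-/- comparisons, with medians of 0.35 (Stat6+/-) and 0.24 (Epi+), and none was called. The Bardet-Biedl genes did not lean one way, with 3 of 5 above 0 in Stat6+/- minus Stat6-/- (median 0.03) and 2 of 5 in Epi+ minus Stat6-/- (-0.03). Bbs5, a BBSome subunit, was 0.61 ± 0.24 higher in Stat6-/- than in PBS (adjusted p = 0.185), among the highest there. Bbs9, also of the BBSome, lay at 0.54, 0.71, 0.61, 0.45 and 0.55 in OVA and at 0.15, 0.30, -0.11, 0.40 and 0.00 in PBS perfusate. The groups did not overlap, which 0.967% of all features also showed in this direction, and the difference of 0.42 was not called (0.344).

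Of the dynein chains, 4 of 7 tested were above 0 in each Stat6-/- comparison, with medians of 0.18 (Stat6+/-) and 0.15 (Epi+), and none was called. Dnah8, an outer-arm heavy chain best known from sperm, was 0.79 ± 0.28 higher in Stat6+/- (adjusted p = 0.174) and 0.85 ± 0.28 in Epi+ (0.294), among the highest members. It was also among the highest of OVA minus PBS (0.53 ± 0.28, 0.604). Dnah11, of the outer arms, and Dnah1, of the inner arms, were low in Stat6+/- minus Stat6-/- (-0.34 ± 0.27 and -0.26 ± 0.56), and both were high in Stat6-/- minus PBS (0.55 ± 0.27 and 0.77 ± 0.67). Dnah1 was among the lowest in Epi+ minus Stat6-/- (-0.40 ± 0.56) and high in OVA minus PBS (0.48 ± 0.67), with values on 3 of 5 PBS arrays. A single array, Stat6-/- replicate 13 at 4.03 against 0.08 to 0.59 on the others, set the Dnah1 values against Stat6-/-: without it they turned to 0.61 in Stat6+/-, 0.47 in Epi+ and -0.24 in Stat6-/- minus PBS.

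Dnah2, an inner-arm heavy chain, was the lowest member in Stat6+/- and Epi+ minus PBS, and 1 PBS array set the size. PBS gave 0.89, 0.42, 3.85, 0.66 and 0.33, with replicate 24 far above the rest, while Stat6+/- ran from -0.29 to 0.27. The differences were -1.17 ± 0.45 (adjusted p = 0.126) in Stat6+/-, where the groups did not overlap, -1.08 ± 0.45 (0.189) in Epi+, -1.07 ± 0.45 (0.206) in Stat6-/- and -0.84 ± 0.45 (0.612) in OVA. Without PBS replicate 24 they were -0.48, -0.39, -0.39 and -0.15. Dnal1, a light chain of the outer arm, was 0.64 higher in Stat6+/- than in PBS (0.0506). Dnah17, of sperm outer arms, had values on 2 to 5 arrays a perfusate group and was not tested there.

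Radial spoke and central pair genes stood above 0 for 10 of 11 tested in Stat6+/- minus Stat6-/- (median 0.25) and for 9 of 11 in Epi+ minus Stat6-/- (0.33). Cfap206 gave 0.55, -0.02, 0.18, 0.19 and 0.09 in Stat6+/-, -0.16, -0.58, -0.33, -0.45 and -0.46 in Stat6-/- and 0.56, 0.23, -0.14, 0.40 and 0.16 in Epi+. Every array of Stat6+/- and of Epi+ lay above every Stat6-/- array, as 0.979% and 0.411% of all features did. PBS gave -0.57, -0.20, -0.44, -0.18 and -0.28, within reach of Stat6-/-, and OVA -0.32 to 0.30. Cfap206 was 0.60 ± 0.14 (adjusted p = 0.0203) higher in Stat6+/- and 0.64 ± 0.14 (0.0472) higher in Epi+ than in Stat6-/-, and 0.53 ± 0.14 (0.0254) and 0.58 ± 0.14 (0.0329) higher than in PBS. The sign held within all 5 preparations in all 4 comparisons. The calls were near the threshold: leaving out an array kept the difference between 0.53 and 0.67 in Stat6+/- minus Stat6-/-, but it ended the call without Stat6+/- replicates 4 or 6 or Stat6-/- replicates 11, 13 or 14. Against PBS it ended without Stat6+/- 4 or 6 or PBS 22 (0.40 to 0.60). In Epi+ it ended against Stat6-/- without Stat6-/- 10, 11, 13 or 14 or Epi+ 16, 17, 19 or 20 (0.58 to 0.71), and against PBS without Epi+ 16, 17, 19 or 20 or PBS 22, 23, 24 or 26 (0.44 to 0.65).

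Spag16, a central pair protein whose X-box is shown above, gave 0.90, 1.64, 0.28, 0.31 and 0.38 in Stat6+/- and -0.13, -0.60, -0.79, -0.31 and 0.42 in PBS. Stat6-/- gave -0.37, -0.70, -0.24, 0.52 and -0.58. Stat6+/- replicates 4 and 5 lay above every array of both groups, and the other Stat6+/- arrays lay below PBS replicate 26 and Stat6-/- replicate 13 but above the rest. Epi+ spread widely, from -0.60 to 1.36. Stat6+/- minus PBS was 0.98 ± 0.28 (adjusted p = 0.0368), was above 0 in 4 of 5 preparations (-0.04 to 2.24) and lost its call without any of Stat6+/- replicates 4 to 7 or PBS 22, 23 or 24 (0.72 to 1.16). Stat6+/- minus Stat6-/- was 0.97 ± 0.28 (0.0651), the highest of all members there but not called. Hydin, a giant central pair protein also with an X-box, had values on 2 to 4 arrays a perfusate group and was not tested there. Its means ran from -0.37 in PBS to 0.80 in Stat6+/-. Rsph6a, a spoke-head protein known from sperm, was among the lowest of Epi+ minus Stat6-/- at -0.35 ± 0.46.

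Genes of the doublet microtubule held the other calls, with 10 of 12 above 0 in Stat6+/- minus Stat6-/- (median 0.29), 11 of 12 in Epi+ minus Stat6-/- (0.38) and 9 of 12 in Epi+ minus PBS (0.66). Ccdc39 stood apart from the rest, because the Stat6-/- arrays were low rather than the others high. It gave -1.20, -0.36, -0.13, -1.05 and -1.05 in Stat6-/-, -0.48, 0.41, -0.06, 0.22 and -0.02 in Stat6+/- and 0.16, 0.19, -0.15, 0.34 and 0.31 in Epi+. OVA gave 0.64, 0.81, 0.33, 0.84 and 0.63 and PBS 0.51, 0.75, 0.53, 0.11 and 0.22. Stat6-/- lay wholly below PBS, as for 1.17% of all features, and wholly below OVA. It overlapped Stat6+/- and, at -0.13 against -0.15, Epi+. Stat6-/- minus PBS was -1.18 ± 0.20 (adjusted p = 0.0147), Stat6+/- minus Stat6-/- 0.77 ± 0.20 (0.0437) and Epi+ minus Stat6-/- 0.93 ± 0.20 (0.0485), while Epi+ minus PBS was -0.25 ± 0.20 (0.499). Within the preparations Stat6-/- was below PBS in 5 of 5 (-1.79 to -0.46) and below Stat6+/- in 5 of 5 (by 0.07 to 1.46), and Epi+ was above Stat6-/- in 4 of 5 (-0.02 to 1.36).

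Those calls for Ccdc39 were also near the threshold. Against PBS the Stat6-/- difference stayed between -1.37 and -1.05 but was no longer called without Stat6-/- replicates 10, 13 or 14 or PBS 22, 23 or 24. Stat6+/- minus Stat6-/- lost its call without Stat6+/- 5, 6, 7 or 8 or Stat6-/- 10, 13 or 14 (0.64 to 0.97). Epi+ minus Stat6-/- lost it without Stat6-/- 10, 13 or 14 or Epi+ 16, 17, 19 or 20 (0.80 to 1.12). Without the 3 arrays low in Y-linked genes, Ccdc39 differed more, by -1.57 from PBS, 1.17 from Stat6+/- and 1.32 from Epi+, and all 3 calls held. That fit rested on Stat6-/- replicates 13 and 14 alone. With a covariate for the low arrays in place of leaving them out, 0 members were called in Epi+ minus Stat6-/-, so its Ccdc39 call was lost.

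Cfap45, a protein inside the doublet microtubule with the X-box shown above, gave 1.43, 0.72, 1.64, 0.30 and 1.10 in Stat6+/- and 0.67, 0.44, 1.43, 0.66 and 1.54 in Epi+. PBS gave 0.38, -0.12, 0.55, -0.14 and 0.11. All but 1 array of Stat6+/- and all but 1 of Epi+ lay above every PBS array. Stat6-/- spread from -0.01 to 1.24 and OVA from 0.11 to 1.04. Stat6+/- minus PBS was 0.88 ± 0.21 (adjusted p = 0.0142) and held without each array. Epi+ minus PBS was 0.79 ± 0.21 (0.044) and ended without Epi+ replicates 17, 18, 19 or 20 or PBS 22, 23, 24 or 26 (0.67 to 0.94). Both were above 0 within all 5 preparations (0.44 to 1.09 and 0.29 to 1.43).

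Cfap126, also called Flattop, which helps dock basal bodies, gave 0.75, 0.56, 0.71, -0.19 and 0.62 in Stat6+/- and -0.36, -0.18, -0.26, -1.01 and -0.45 in PBS. Only Stat6+/- replicate 7 came down to the highest PBS array. Its preparation, 1.1, also held the lowest PBS array. Epi+ ran from -0.08 to 0.89, Stat6-/- from -0.60 to 0.14 and OVA from -1.03 to 0.01. Stat6+/- minus PBS was 0.94 ± 0.22 (adjusted p = 0.0143), held without each array and lay at 0.74 to 1.11 within the preparations. Epi+ minus PBS was 0.78 (0.0628) and Stat6+/- minus Stat6-/- 0.74 (0.0893), neither called.

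Cfap53, a further protein of the doublet needed for left-right asymmetry, lay at 0.07, 0.06, 0.81, 0.29 and 0.61 in Stat6+/-, at 0.40, 0.23, 0.48, 0.31 and 0.87 in Epi+ and at -0.29, -0.12, -0.27, -1.01 and -0.43 in PBS. Stat6+/- and Epi+ lay wholly above PBS, as 1.72% and 1.42% of all features did. OVA, at -0.90 to -0.11, lay with PBS, and Stat6-/- spread from -0.52 to 0.90. Stat6+/- minus PBS was 0.79 ± 0.21 (adjusted p = 0.0276) and Epi+ minus PBS 0.88 ± 0.21 (0.031), above 0 in all 5 preparations. The first ended without Stat6+/- replicates 6, 7 or 8 or PBS 24, 25 or 26 (0.68 to 0.93), the second without Epi+ 16, 17, 19 or 20 or PBS 22, 24, 25 or 26 (0.77 to 1.02). Cfap161, of the same role, was 0.74 higher in Epi+ than in PBS (0.0533), and the sperm tektin Tekt5 was among the lowest of OVA (-1.10 ± 0.49, 0.497), Stat6+/- (-0.70 ± 0.49) and Epi+ (-0.59 ± 0.49) minus PBS. Its OVA value was -0.41 without OVA replicate 31, which lay at -3.29.

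Foxj1 itself was called in none of the 13 comparisons. In perfusate it gave 0.75, 0.65, 0.23, -0.50 and 0.49 in Stat6+/-, -0.20, -0.34, 0.08, -0.94 and -0.45 in Stat6-/- and -0.38, -0.39, 0.82, -0.12 and 0.42 in Epi+. It ran from -0.18 to 0.91 in OVA and from -0.53 to 0.55 in PBS. All groups overlapped. Stat6+/- minus Stat6-/- was 0.69 ± 0.26 (adjusted p = 0.208), Epi+ minus Stat6-/- 0.44 ± 0.26 (0.813), OVA minus PBS 0.30 (0.808) and Stat6-/- minus PBS -0.30 (0.536).

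Among members outside these groups, none was called, with medians of 0.07 (10 of 15 above 0) in Stat6+/- minus Stat6-/- and 0.26 (12 of 15) in Epi+ minus Stat6-/-. The symbol Spag covers more than cilia: Spag4 is a nuclear envelope protein, Spag5 a protein of the mitotic spindle and Spag9 a scaffold of kinase signalling. Spag4 was among the lowest members in both, at -0.38 ± 0.16 (adjusted p = 0.278) and -0.40 ± 0.16 (0.479). Cfap157, a microtubule-binding protein of the sperm flagellum, was among the highest in Epi+ minus Stat6-/- (0.82 ± 0.24, 0.191). Cfap70, bound to outer arms, was low in Stat6-/- minus PBS (-0.86 ± 0.52, 0.368) and in OVA minus PBS (-0.48 ± 0.52, 0.862). The first was -0.22 without Stat6-/- replicate 10, which lay at -1.77 against 0.10 to 1.72 on the others. Of the 78 values of the 3 highest and 3 lowest members over the comparisons, 43 moved by more than 1.5 times or changed sign when 1 array was left out. Tppp3 averaged 0.38 to 0.80 over the perfusate groups with SDs of 0.72 to 0.96, most of it the preparation difference given above.

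OVA treatment left the perfusate members near PBS. Of 64 members, 0 were called where 0.246% of all features were, 3 were higher and 1 lower at an unadjusted p under 0.05 (9.2% of all features), and 43 (67.2%, against 48.7% of all features) lay above 0. The median was 0.09, against -0.01 over all features, and within the preparations it was 0.16, 0.00, 0.20, -0.14 and 0.28.

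**Figure D4:**
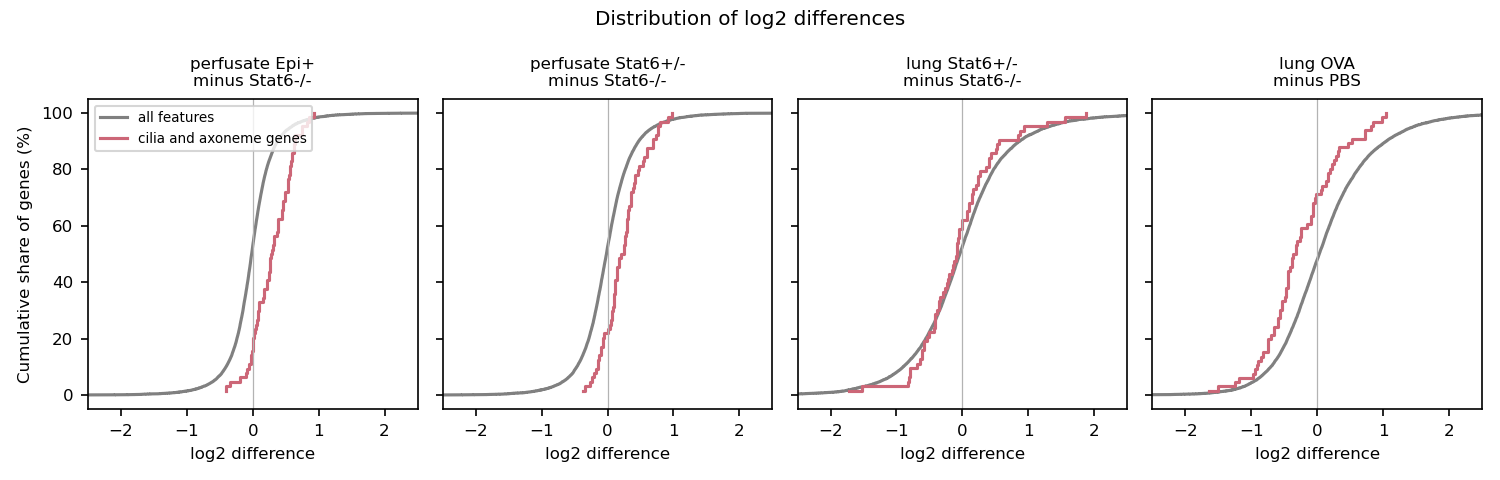
Cumulative share in percent (y axis) of log2 differences (x axis, shown from -2.5 to 2.5) for the cilia and axoneme genes and for all features tested, in 4 comparisons. The members' curve lies to the right of all features in the 2 perfusate comparisons (medians 0.28 and 0.23) and to the left in OVA minus PBS lung (-0.35).

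In whole lung with IL-13 no member was called, and the members' medians lay near those of all features. In Stat6+/- minus Stat6-/- lung, 0 of 63 members were called where 5.01% of all features were, with 2 higher and 7 lower at an unadjusted p under 0.05, which 19.4% of all features passed. The median was -0.08, against -0.04, and 25 (39.7%, against 47.3%) lay above 0. In Epi+ minus Stat6-/- lung, 0 of 63 were called where 0.0794% of all features were, with 3 higher and 1 lower at that p (4.19% of all features), a median of 0.02 against -0.04 and 34 (54.0%, against 45.8%) above 0. In Stat6+/- minus Epi+ lung, 0 of 63 were called where 3.55% of all features were, with 0 higher and 5 lower at that p (19.4%), a median of -0.11 against 0.03 and 23 (36.5%, against 51.8%) above 0. Centring removed -0.37, -0.16 and -0.21 from these comparisons, and on the values as deposited the first median became -0.49 and the second turned to -0.16. Groups did not overlap for 1 higher and 3 lower members in the first (3.41% and 2.27% of all features) and for 0 higher and 1 lower in the last (3.51% and 2.12%). Leaving out lung replicate 1 of Stat6+/- gave 1 call in the first comparison and 1 in the last, and leaving out its replicate 5 gave 1 in the first. The pools, 3 and 4, gave -0.13 and -0.07 in the first, 0.12 and -0.03 in the second and -0.31 and 0.01 in the last.

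Tppp3 was the member nearest a loss in Stat6+/- lung that also kept its groups apart. It lay at -0.26, -0.17, -1.05, -0.65 and -1.17 in Stat6+/- and at -0.02, -0.06, -0.04, 0.89 and -0.07 in Stat6-/-, with every Stat6+/- array lower, as 2.27% of all features showed. The difference was -0.80 ± 0.25 (adjusted p = 0.0839). Ift81 was -0.61 (0.0649) with overlapping groups. Foxj1 ran from 0.07 to 1.79 in Stat6+/-, from 0.27 to 0.86 in Stat6-/- and from -0.14 to 0.87 in Epi+. Its Stat6+/- minus Stat6-/- difference of 0.10 ± 0.27 (0.872) changed sign without Stat6+/- replicate 1 (-0.12), with quantile normalisation (-0.10) and as deposited (-0.27). Epi+ minus Stat6-/- was -0.13 (0.991).

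The ends of the lung lists were set by members with wide errors, some known from sperm and many with values on 3 or 4 arrays of a group. In Stat6+/- minus Stat6-/-, Ropn1, a sperm fibrous sheath protein, was highest (1.88 ± 1.39, adjusted p = 0.505), with Tekt4 (1.56 ± 0.76, 0.295) and Tekt3 (1.29 ± 1.20, 0.62), and Hydin was lowest (-1.72 ± 0.96, 0.361), with Cfap157 (-1.52 ± 0.76, 0.303) and Cfap70 (-0.83 ± 0.38, 0.258). In Epi+ minus Stat6-/- Tekt4 (2.10 ± 0.81), Ropn1 (1.39 ± 1.19) and Tekt3 (1.19 ± 1.20) were highest and Hydin (-2.56 ± 0.96), Spag5 (-2.20 ± 1.34) and Cfap299 (-1.57 ± 0.97) lowest, all at an adjusted p of 0.983. Hydin averaged 1.54 ± 0.64 (SD, n = 5) in Stat6-/- lung, with SDs of 2.00 (n = 4) in Stat6+/- and 2.28 (n = 4) in Epi+. Spag6l, a central pair protein, lay at 0.77, 0.86, 0.51, 0.87 and 0.91 in Epi+ and from -0.14 to 0.38 in Stat6-/-, apart but not called (0.67, 0.536), as 0.675% of all features did. In Stat6+/- minus Epi+, Spag5 (1.84 ± 1.47), Dnah2 (1.11 ± 1.48) and Hydin (0.84 ± 1.01) were highest and Cfap70 (-1.33 ± 0.42, adjusted p = 0.104, groups apart), Tekt2 (-1.13 ± 0.66) and Cfap20dc (-0.69 ± 0.61) lowest.

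In OVA-treated lung most members lay below their level in PBS lung, and none passed the test. Of 66 members, 47 (71.2%) lay below 0, against 48.0% of all features, with a median of -0.35 against 0.03. The count called was 0, where 1.94% of all features were called and 0.295% were called lower, and 2 were higher and 6 lower at an unadjusted p under 0.05, which 16.0% of all features passed. By role, 8 of 10 IFT-B genes (median -0.45), 10 of 12 doublet genes (-0.47) and 6 of 8 dynein chains (-0.28) lay below 0, and 6 of 12 spoke and central pair genes (-0.10). Centring removed -0.17.

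Of these, Cfap206 lay at -0.20, -0.17, -0.40, -0.44 and -0.51 in OVA and at 0.35, 0.14, 0.04, 0.23 and 0.55 in PBS lung. Cfap161 lay at -0.90, -0.77, -0.86, -1.36 and -0.79 in OVA and from -0.52 to 0.33 in PBS. In both the groups were apart, as for 3.2% of all features in this direction, and neither was called (-0.60, adjusted p = 0.161, and -0.86, 0.113). Tppp3, at -2.01, -1.30, -1.64, -2.07 and -0.93 in OVA, was -0.90 (0.238), with the PBS array at -1.66 inside its range. Foxj1, at -0.95, -1.01, -1.24, -1.36 and -0.13, was -0.75 ± 0.50 (0.49), with PBS spread from -1.35 to 1.44, and lay at -0.35 without PBS replicate 4 and at -1.05 without PBS replicate 5. The lowest were Hydin (-1.64 ± 1.16, 0.535, 3 arrays a group), Ift43 of IFT-A (-1.50 ± 0.51, 0.18) and Cfap97d1 (-1.25 ± 1.95, 0.788). The highest were Ift140 of IFT-A (1.05 ± 0.42, 0.256), Spag16 (0.99 ± 0.45, 0.318) and Cfap57, which is known from Chlamydomonas to hold inner arms (0.85 ± 0.50, 0.431).

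Whether the Stat6 comparisons differed between tissues was tested as an interaction, perfusate minus lung. For Stat6+/- minus Stat6-/-, 0 of 61 members were called where 4.5% of all features were, with 12 higher and 0 lower at an unadjusted p under 0.05, which 17.3% of all features passed. The median was 0.34, against 0.02, and 45 (73.8%, against 51.0%) lay above 0. For Epi+ minus Stat6-/-, 0 of 61 were called where 0.104% of all features were, with 5 higher and 0 lower at that p (5.91%), a median of 0.28 against 0.02 and 41 (67.2%, against 51.8%) above 0. Without the arrays low in Y-linked genes the medians were 0.73 and 0.50 and the counts called 1 and 0. For Stat6+/- minus Stat6-/- the count was 1 without lung Stat6+/- replicate 1, 3 or 5 and 2 without perfusate Stat6-/- replicate 12. Amplification, 1 round in perfusate and none in lung, goes with tissue and cannot be told apart from it.

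The members nearest a call were Ift81 (0.73, adjusted p = 0.0735) and Bbs9 (0.79, 0.0866), both in the Stat6+/- comparison. Its highest were Cfap157 (1.79 ± 0.69, 0.155), Cfap70 (1.59 ± 0.68, 0.211) and Spag16 (1.49 ± 0.86, 0.389), and its lowest Ropn1 (-2.01 ± 1.18, 0.4), Tekt4 (-1.13 ± 0.67) and Dnah2 (-1.04 ± 1.04). For Epi+ the highest were Spag5 (2.20 ± 1.05, 0.838), Cfap157 (1.72 ± 0.65, 0.665) and Cfap299 (1.46 ± 0.93), and the lowest Ropn1 (-1.47 ± 1.09), Tekt4 (-1.36 ± 0.69) and Tekt2 (-0.80 ± 0.60). Foxj1 gave 0.59 ± 0.38 (0.448) and 0.57 (0.889).

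Of the lists of other ciliary genes, which hold no member, the axoneme list had medians above 0 in perfusate against PBS and against Stat6-/-. Those for transport and transcription did not do so throughout. Of 50 axoneme and motility genes tested, 6 were called higher in Stat6+/- minus PBS (median 0.29) and 8 in Epi+ minus PBS (0.48), with 0 lower in either. Over all features, 2.89% and 1.38% were called higher. Examples are Mlf1 (1.08 ± 0.19 and 1.19 ± 0.19), Fam183b (0.98 ± 0.17 and 1.00 ± 0.17), the radial spoke protein Nme5 (1.05 ± 0.21 and 0.83 ± 0.21) and Mns1, a filament inside the doublet (0.87 ± 0.20 and 0.94 ± 0.20). Fam183b was also called higher in Stat6-/- minus PBS (0.86 ± 0.17, adjusted p = 0.0274), the only one there, where 0.328% of all features were. Against Stat6-/-, 1 was called, Tcte1 of the nexin-dynein complex, lower in Stat6+/- (-0.79 ± 0.17, 0.0123), where 1.98% of all features were. The list's medians were 0.09 (Stat6+/-, 29 of 50 above 0) and 0.32 (Epi+, 38). Unlike the members, it also lay above 0 in Stat6-/- minus PBS (0.15, 33), and Stat6+/- minus Epi+ was -0.15 (13). In lung its medians were -0.20 (14 of 48) in Stat6+/- and 0.12 (29) in Epi+ minus Stat6-/-, and -0.13 (20 of 52) in OVA minus PBS.

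Of 30 other IFT and trafficking genes tested, 2 were called higher in Stat6+/- minus Stat6-/-, where 1.09% of all features were. They were Rilpl2, a regulator of ciliary membrane content (1.85 ± 0.31, adjusted p = 0.00154), and Traf3ip1, which encodes the IFT-B subunit IFT54 (0.88 ± 0.21, 0.0259). The list's medians were 0.13 there (21 of 30 above 0) and 0.24 in Epi+ minus Stat6-/- (22), but -0.11 (11) in Stat6+/- and -0.02 (13) in Epi+ minus PBS. In lung they were -0.34 (8 of 30) in Stat6+/- and 0.00 (15) in Epi+ minus Stat6-/-, and -0.25 (9 of 31) in OVA minus PBS. The 10 ciliated-cell transcription genes lay mostly below 0, with medians of -0.25 (2 above 0) in Stat6+/- minus Stat6-/-, -0.33 (3) in Stat6+/- minus PBS and -0.05 (4) in Epi+ minus Stat6-/-. Of these, E2f5, a partner of multicilin, was lower in Stat6+/- than in Stat6-/- (-0.77 ± 0.16, 0.00992), Rfx1 lower in Stat6+/- than in PBS (-0.68 ± 0.19, 0.0394) and Myb, which acts early in multiciliated cells, higher in OVA than in PBS (1.23 ± 0.22, 0.0195).

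Markers of other airway cells also differed between groups, and not all in the order of the cilia genes. The mean level of 8 mucous-cell genes lay between 0.71 and 1.35 in Stat6+/-, between 0.57 and 0.97 in Epi+ and between 0.82 and 1.26 in OVA perfusate, against -0.88 to -0.50 in Stat6-/- and -0.62 to -0.02 in PBS. Of 11 tested, 7 were called higher in Stat6+/- and 4 in Epi+ minus Stat6-/-, where 1.09% and 0.152% of all features were. The 12 club-cell genes lay between -0.56 and -0.18 in Stat6+/-, between 0.14 and 0.40 in Stat6-/- and between -0.20 and 0.22 in Epi+. In Stat6+/- minus Stat6-/-, 3 of 14 were called lower, where 1.98% of all features were. General epithelial genes lay above 0 for 8 of 9 in Stat6+/- minus Stat6-/- (median 0.32, 1 called), in Epi+ minus Stat6-/- (0.12) for 8 and in Stat6+/- minus PBS (0.36) for 8. Leukocyte genes had medians of 0.72 (9 of 12 above 0) in Stat6+/- and 0.19 (10) in Epi+ minus Stat6-/-, with none called. Basal-cell genes had medians of -0.01 (4 of 8 above 0) and -0.19 (1 of 8) in these comparisons, with none called.

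In lung, 6 of 12 leukocyte genes were called higher in Stat6+/- minus Stat6-/- (median 1.08) and 5 of 12 in OVA minus PBS (1.34), where 7 of 12 cell-cycle genes were also called higher (1.65). Over all features, 5.01% and 1.94% were called in either direction in these comparisons. Some epithelial lists lay below 0 in OVA minus PBS lung along with the cilia genes: 2 of 14 club-cell genes were above 0 (median -0.54), 2 of 9 alveolar genes (-0.30) and 2 of 9 general epithelial genes (-0.12). Basal-cell genes went the other way, with 6 of 8 above 0 (0.21), and 5 of 10 ciliated-cell transcription genes were above 0 (0.11). Mucous-cell genes were high there, with 10 of 11 above 0 (1.66) and 6 called. The leukocyte list averaged 0.67 to 1.31 on OVA lungs and -1.04 to -0.20 on PBS lungs. Ratios of 2 colours have no zero, so that none of these markers can be said to be absent. The part of these markers in the cilia values was not tested.

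Of the 8 X-box members 7 were tested in perfusate. Of these, 5 lay above 0 in Stat6+/- minus Stat6-/- (median 0.42, against 0.22 over 46 other members with a promoter) and 6 in Epi+ minus Stat6-/- (0.37 against 0.26). In lung, where all 8 were tested, 2 lay above 0 in Stat6+/- minus Stat6-/- (-0.55 against -0.05 over 44 others), 3 in Epi+ minus Stat6-/- (-0.03 against 0.13) and 2 in OVA minus PBS (-0.40 against -0.30 over 47 others).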

How the data were processed

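The data are 50 arrays with 2 channels, 5 in each of 10 groups, on platforms of 40 and 10 arrays. The reference was in the first channel and the sample in the other, per the labels. The deposited values are log2 ratios: all of them (100%) are log2 of linear ratios written to 3 decimals, within a tolerance of 2e-04, and the lowest ratio is 0.001. How the authors corrected background or normalised, and the direction of the ratio, remain unstated in the sources used here. Arrays number few, which limits the precision, and scanner intensities were not used here.

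Each array was centred on its median, the spots of a gene symbol were averaged, and features with at least 3 arrays a group were fitted by least squares with limma's moderated variances (R 4.3.3, limma 3.58.1), separately for perfusate (25 arrays), lung with IL-13 (15) and lung with OVA or PBS (10), and jointly for the 2 interactions. The reference preparation or pool was a block. Where leaving out arrays left a group with fewer than 3, a value on each remaining array was asked for. The p-values were adjusted by Benjamini-Hochberg over all features, with a threshold of 0.05, in 13 comparisons. The fit was tested on simulated data. Members and lists were chosen with earlier results of these data known. The text names every member called, members from the 3 highest and 3 lowest of each comparison, though not all of them each time, and Foxj1, Hydin, Tppp3 and Ccdc39. Lists of other ciliary genes and of airway, blood and dividing cells stand beside them. Alternatives changed the centring, the normalisation, the block, the weights of arrays, the groups fitted, the spots used and the arrays left out. Figures were drawn with matplotlib 3.10.9.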

Additional observations from a re-analysis of the deposited data

Results flagged for a closer look

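Over 11 genes and the members' median, 120 groups of arrays were searched for an array far from the others, and 8 held one. Some groups, among them several of Hydin, held too few values for the test, so fewer than 120 were tested. Chance gives about 1 in 20 of those tested. In perfusate, Cfap126 lay at -0.19 on replicate 7 of Stat6+/- (others 0.56 to 0.75). Ift172 lay at 0.36 on replicate 16 of Epi+ (0.68 to 0.77) and at 0.00 on replicate 25 of PBS (-0.23 to -0.16). In lung, Ift172 lay at -0.67 on replicate 1 of Stat6+/- (0.18 to 0.52) and at -0.60 on replicate 1 of PBS (0.25 to 0.45). Tppp3 lay at 0.89 on lung replicate 5 of Stat6-/- (-0.07 to -0.02). In OVA lung, Ccdc39 lay at -2.84 on replicate 5 (-0.98 to -0.42) and Cfap45 at -0.28 on replicate 4 (-1.09 to -1.03).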

How the results depend on the processing

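Counts of members called moved with several choices, while most medians moved by less than the largest SD between arrays of the groups compared. With array weights 14 members were called in Epi+ minus PBS, 6 in Epi+ minus Stat6-/- and 6 in Stat6+/- minus Stat6-/- perfusate, and 1 each in Stat6+/- minus Stat6-/- lung, OVA minus PBS lung and the Stat6+/- interaction. Fits of only the 2 groups compared, with fewer samples, called 0 in all 5 perfusate comparisons that had calls. Without the reference block 1 (Epi+ minus PBS), 0 (Epi+ minus Stat6-/-), 3 (Stat6+/- minus PBS) and 1 (Stat6+/- minus Stat6-/-) were called. As deposited, without centring, the counts were 0, 0, 1 and 0 in that order and 0 in Stat6-/- minus PBS. Quantile normalisation gave 9, 0 and, in Stat6-/- minus PBS, 2, and 1 in Stat6+/- minus Stat6-/- lung. Without preparation 1.3 the counts were 1 in Epi+ minus PBS, 0 in Epi+ minus Stat6-/-, 4 in Stat6+/- minus PBS and 0 in Stat6-/- minus PBS. Requiring a value on every array gave 2 in Stat6+/- minus Stat6-/- lung.

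A covariate for arrays low in Y-linked genes, and leaving them out, gave 0 and 1 calls in Epi+ minus Stat6-/- and 1 and 1 in the Stat6+/- interaction. The medians then became 0.54 and 0.54 in Epi+ minus Stat6-/-, -0.24 and -0.23 in Stat6-/- minus PBS and 0.69 and 0.73 in the Stat6+/- interaction, and 0.50 in the Epi+ interaction without them. As deposited, medians were 0.50 and 0.83 in the Epi+ and Stat6+/- interactions, -0.16 in Epi+ and -0.49 in Stat6+/- minus Stat6-/- lung. Foxj1 in Stat6+/- minus Stat6-/- lung turned to -0.10 with quantile normalisation, -0.27 as deposited and -0.12 without lung Stat6+/- replicate 1, and lay at up to 0.22 without the others. The cause of these moves was not tested.

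Leaving out each array gave 1 to 3 calls in Stat6+/- minus Stat6-/- perfusate, 0 to 5 in Epi+ minus Stat6-/-, 0 to 2 in Stat6-/- minus PBS, 4 to 7 in Stat6+/- minus PBS and 1 to 6 in Epi+ minus PBS, with medians of 0.17 to 0.27, 0.20 to 0.41, -0.10 to 0.08, 0.17 to 0.28 and 0.24 to 0.38. In lung it gave 0 to 1 in Stat6+/- minus Stat6-/- and minus Epi+, and 0 to 2 in the Stat6+/- interaction. Replicate numbers did not pair the lung samples (12 same-numbered IL-13 pairs correlated at -0.318 to 0.249 and 4 OVA and PBS pairs at -0.176 to 0.007). A replicate block called 0 in all 4 lung comparisons, with medians of -0.01, 0.05, -0.12 and -0.34, and changed no call. Over all alternatives, 479 counts and medians stayed close and 77 moved, and of the values of called genes 183 kept their call and 135 kept the sign only. Foxj1, not called, stayed so with its sign in 92 values and turned in 3. Values missing on many lung arrays limit Hydin, Ropn1, Tekt3, Tekt4 and Spag5.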

Other observations

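Several members were read by more than 1 accession, and their probes did not always give the same value. Spag16 was 1.17 ± 0.27 (SE; limma, adjusted p = 0.0172) and 0.75 ± 0.27 (0.184) in Stat6+/- minus Stat6-/- perfusate by its 2 tested accessions, and 0.44 and -1.55 in lung. In OVA minus PBS lung its 3 accessions gave 0.61, 2.79 and -0.15. Cfap20dc gave 0.46 and -0.61 in Stat6-/- minus PBS perfusate, 0.37 and -0.52 in Stat6+/- minus PBS and 0.54 and -0.58 in Epi+ minus PBS, with opposite signs each time. Cfap57, high in OVA minus PBS lung by its average, gave -0.16 and 1.56 there. Rsph3a, a radial spoke protein, gave -0.69 (0.0759) and -0.06 in Stat6+/- minus Stat6-/- lung.

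Among alveolar genes, Sftpa1, a surfactant protein, was lower in Stat6+/- than in Stat6-/- perfusate (-2.55 ± 0.25, adjusted p = 1.42e-05) and higher in lung (0.90 ± 0.21, 0.0234), with an interaction of -3.45 ± 0.33 (4.82e-08). Elf3, an epithelial transcription factor, was higher in Stat6+/- than in Stat6-/- perfusate (0.87 ± 0.19, 0.0138). Dst, a linker of basal epithelial cells, was lower in Stat6+/- than in PBS perfusate (-0.70 ± 0.17, 0.0156).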
